A study of Mus musculus with 47 samples.

Results

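The 9 genes described here belong to the renin-angiotensin system. They are Agt, Ren1, Atp6ap2, Ace, Mme, Enpep, Anpep, Agtr1a and Mas1, taken by name, and all 9 were found among the 22474 genes of the table and passed the filter on low counts, which left 18786 genes. They were measured in NZO/HlLtJ, CAST/EiJ and C57BL/6J mice, which are inbred strains, in 47 polyadenylated RNA libraries of mouse kidney, which the labels name metanephros. Wild-type mice of both sexes were fed a diet with 44% fat plus fiber or a diet with 10% fat plus fiber from 6 to 15 weeks of age. The series calls its diets high fat, high sugar and control, and the labels give no sugar content. The series is about whether strains of mice used as diabetes models respond differently to diet. Each combination of strain, sex and diet had 4 libraries, except CAST/EiJ males on 10% fat, which had 3. No other treatment is labelled, and C57BL/6J on 10% fat serves below as the strain that the others are set against.

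In this system the protease renin cuts angiotensinogen to angiotensin I, angiotensin-converting enzyme turns that into angiotensin II, and angiotensin II acts on its type 1 receptor to raise vascular tone and sodium retention. In kidney, renin comes from juxtaglomerular cells of the afferent arteriole, and the proximal tubule carries angiotensinogen and a set of brush border peptidases that make, trim and destroy angiotensin peptides. A counter-acting branch produces angiotensin-(1-7), which signals through the Mas receptor.

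Total counts per library were 34.4 M to 58.4 M, with a median of 44.8 M. Levels are counts-per-million values (CPM) on library sizes scaled by the trimmed mean of M-values (TMM), and adjusted p-values come from the quasi-likelihood test of edgeR, adjusted by Benjamini-Hochberg over all 18786 genes, with 0.05 as the threshold. The labels do not say that libraries of a group came from separate animals, so these p-values measure the spread between libraries, which may be technical. Sample ID numbers fall into 3 runs whose meaning the labels do not give. The model held a term for them, which was significant for 0 genes at an adjusted p under 0.05 and had an adjusted p of 0.81 to 0.99 for the 9 genes. For NZO/HlLtJ a diet effect or a sex effect can be formed within run 77 alone. The 8 proximal tubule markers examined summed to 15096 to 21403 CPM per library, and none of them was at 0 throughout. In bulk tissue, fewer cells of a type and less RNA per cell cannot be told apart. GRCm38 is the only genome build named for the 3 strains. How far differences of strain sequence from it alter the counts, and so the strain comparisons below, was not tested.

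Levels of different genes are compared per kilobase of exon. By the median over the 12 groups, Anpep stood at 58.2 CPM per kb, Ace at 56.6, Ren1 at 42.7, Atp6ap2 at 39.4, Enpep at 35.7, Mme at 20.9, Agtr1a at 15.2, Agt at 3.99 and Mas1 at 0.310 CPM per kb. The ranges of group means of neighbours in this order overlapped, from Anpep (52.6 to 83.5 CPM per kb) and Ace (34.6 to 82.7) down to Mme (8.48 to 42.4) and Agtr1a (14.3 to 18.1), and Agt spanned 0.336 to 34.8 CPM per kb and so crossed Mas1 (0.0673 to 1.56). The ratio of the highest to the lowest group mean in CPM was 103 for Agt, 23.2 for Mas1, 5.45 for Ren1, 5.0 for Mme, 3.29 for Enpep, 2.39 for Ace, 1.59 for Anpep, 1.32 for Atp6ap2 and 1.26 for Agtr1a. Agt and Mas1 therefore varied most among the groups, and the genes of the angiotensin II receptor and the prorenin receptor least. The lowest group mean of Agt, that of NZO/HlLtJ males on 10% fat, rests on 23 to 41 counts per library.

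**Figure D1:**
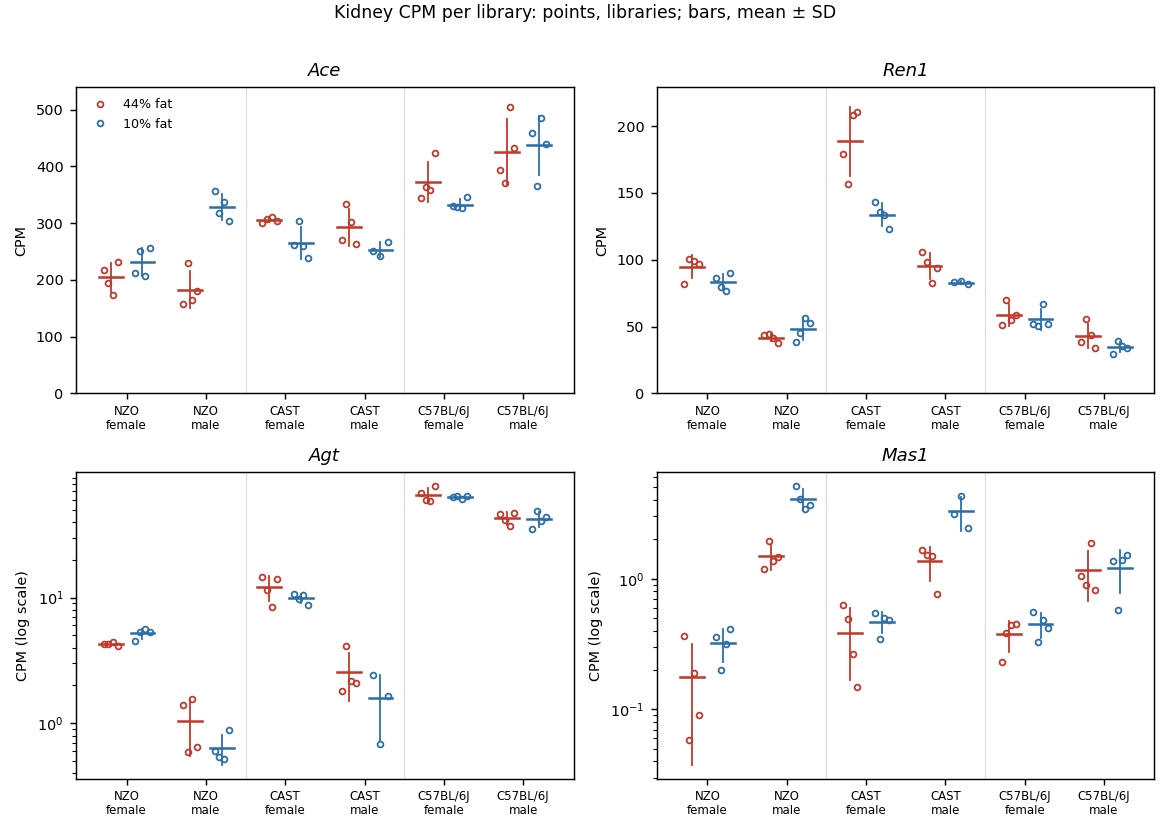
CPM of Ace, Ren1, Agt and Mas1 (vertical axes, logarithmic for Agt and Mas1) in each library by strain and sex (horizontal axis), with 44% fat in red to the left of 10% fat in blue. Points are libraries and bars are the mean ± SD of 4 libraries (3 in CAST/EiJ males on 10% fat). Ace separates the diets in NZO/HlLtJ males (158 to 230 CPM on 44% fat, 304 to 356 CPM on 10% fat), and Agt is highest in C57BL/6J.

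Agt encodes angiotensinogen, the substrate of renin, and lies on the minus strand of chromosome 8 (124556534 to 124569706, GRCm38). It was far higher in C57BL/6J than in the other strains, and between those strains the difference was smaller than that between the sexes within each. Because this gene had the widest range, the 300 bases of reference sequence from 250 before to 50 after its RefSeq start are shown (chr8:124569657-124569956, minus strand, GRCm38.p6), with a TATA box in capitals.
Agt: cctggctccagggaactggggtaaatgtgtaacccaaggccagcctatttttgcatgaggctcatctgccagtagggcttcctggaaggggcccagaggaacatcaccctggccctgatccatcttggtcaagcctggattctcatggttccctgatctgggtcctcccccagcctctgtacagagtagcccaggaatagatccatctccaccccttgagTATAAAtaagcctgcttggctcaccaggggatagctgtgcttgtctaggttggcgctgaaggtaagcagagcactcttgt

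In libraries of mice on 10% fat, Agt was at 4.54, 5.29, 5.63 and 5.30 CPM in NZO/HlLtJ females, 10.6, 9.72, 10.4 and 8.80 CPM in CAST/EiJ females, and 62.7, 64.6, 60.9 and 64.2 CPM in C57BL/6J females. In males on 10% fat it was at 0.599, 0.541, 0.524 and 0.881 CPM in NZO/HlLtJ, 2.40, 0.690 and 1.64 CPM in CAST/EiJ, and 35.3, 48.8, 40.9 and 43.8 CPM in C57BL/6J. The C57BL/6J libraries lay far above all libraries of the other strains in both sexes. In males the NZO/HlLtJ and CAST/EiJ libraries overlapped, and in females they did not. NZO/HlLtJ was lower than C57BL/6J (log2 fold change -4.82, SE 0.17, adjusted p 1.23e-23), CAST/EiJ was lower than C57BL/6J (-3.69, SE 0.16, adjusted p 7.77e-21), and NZO/HlLtJ was lower than CAST/EiJ (-1.13, SE 0.20, adjusted p 8.58e-06). As ratios of mean CPM on 10% fat, NZO/HlLtJ was at 0.0822 of C57BL/6J in females and at 0.0151 in males. Across the 3 ID runs the difference of CAST/EiJ from C57BL/6J was -4.39 to -3.21, and within run 77 that of NZO/HlLtJ was -4.79. The 4 markers examined for liver, where angiotensinogen is also made, summed to 82.5 to 262 CPM in NZO/HlLtJ, 2.49 to 11.2 CPM in CAST/EiJ and 37.8 to 155 CPM in C57BL/6J. Over all libraries Ttr was at 0 to 240 CPM, Serpina1a at 0.445 to 41.3 CPM, Alb at 0.436 to 21.5 CPM and Apoa1 at 0 to 1.26 CPM. The highest sums were therefore mostly Ttr. The part of these markers in the strain differences of Agt was not tested.

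Agt was higher in females in every strain, with no overlap between the sexes over both diets. The lowest, median and highest library were 4.12, 4.5 and 5.63 CPM in females and 0.524, 0.624 and 1.56 CPM in males of NZO/HlLtJ. They were 8.49, 10.5 and 14.6 CPM in females and 0.690, 2.10 and 4.11 CPM in males of CAST/EiJ, and 58.8, 63.5 and 77.2 CPM in females and 35.3, 42.5 and 48.8 CPM in males of C57BL/6J. The log2 fold change of females over males was 2.51 (SE 0.19, adjusted p 9.62e-14) in NZO/HlLtJ, 2.42 (SE 0.17, adjusted p 1.76e-14) in CAST/EiJ and 0.61 (SE 0.13, adjusted p 0.000115) in C57BL/6J. NZO/HlLtJ males had only 23 to 65 counts of Agt per library over both diets. The sex difference itself was larger by 1.90 (SE 0.23, adjusted p 3.03e-07) in NZO/HlLtJ and by 1.80 (SE 0.21, adjusted p 4.85e-08) in CAST/EiJ than in C57BL/6J, and its difference between NZO/HlLtJ and CAST/EiJ, 0.10 (SE 0.26, adjusted p 0.88), did not pass the test. Diet effects on Agt did not pass the threshold in any strain. They were 0.22 (SE 0.20) in NZO/HlLtJ, 0.49 (SE 0.17, adjusted p 0.173) in CAST/EiJ and 0.04 (SE 0.12) in C57BL/6J. In NZO/HlLtJ females Agt was at 4.28 ± 0.14 CPM on 44% fat and 5.19 ± 0.46 CPM on 10% fat (SD, n = 4 each), with no overlap, and in NZO/HlLtJ males at 1.05 ± 0.50 CPM on 44% fat and 0.636 ± 0.166 CPM on 10% fat (SD, n = 4 each), with overlap. The diet effect of females minus that of males there was -1.08 (SE 0.42, adjusted p 0.34).

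Ren1 encodes renin, the protease that starts the cascade, and lies on the plus strand of chromosome 1 (133350510 to 133360325, GRCm38). On 10% fat it was highest in CAST/EiJ, next in NZO/HlLtJ and lowest in C57BL/6J. On 44% fat NZO/HlLtJ males (41.8 ± 2.8 CPM) and C57BL/6J males (43.0 ± 9.2 CPM; SD, n = 4 each) overlapped. Ren1 was higher in females of each strain, and on 44% fat it rose in CAST/EiJ. Its reference promoter is shown for comparison with that of its substrate (chr1:133350424-133350723, plus strand, GRCm38.p6), again with the TATA box in capitals.
Ren1: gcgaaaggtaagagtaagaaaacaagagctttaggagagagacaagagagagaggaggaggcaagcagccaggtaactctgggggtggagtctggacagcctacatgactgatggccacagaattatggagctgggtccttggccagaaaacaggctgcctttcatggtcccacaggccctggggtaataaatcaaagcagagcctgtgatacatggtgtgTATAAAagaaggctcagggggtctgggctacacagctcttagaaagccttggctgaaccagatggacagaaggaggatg

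The letters TATAAA, searched on both strands, were present in 13.6% of the 32851 RefSeq promoters of the same length. They began 30 bases before the start in Agt and 29 bases before it in Ren1. A RefSeq promoter was matched for 8 of the 9 genes.

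In CAST/EiJ females Ren1 was at 179, 157, 208 and 211 CPM on 44% fat and at 143, 136, 133 and 123 CPM on 10% fat. In CAST/EiJ males it was at 105, 98.6, 82.4 and 94.0 CPM on 44% fat and at 83.1, 83.8 and 81.7 CPM on 10% fat. The diets did not overlap in the females, and in the males 1 library on 44% fat lay within the range of those on 10% fat. As the mean of both sexes the log2 fold change was 0.34 (SE 0.09, adjusted p 0.0448), higher on 44% fat in a strain where 0.990% of all genes passed the test. Within the ID runs it was 0.26 to 0.46, positive in 3 of 3. Within the sexes it was 0.49 (SE 0.12, adjusted p 0.079) in females and 0.19 (SE 0.13, adjusted p 0.59) in males, and neither passed. DESeq2's Wald test called the females (adjusted p 0.0209). Over the fits that left out 1 CAST/EiJ library each, the mean of both sexes was 0.29 to 0.38 with an adjusted p of 0.022 to 0.127. It passed in 4 of these 15 fits, those without females on 44% fat replicate 1 or 2, females on 10% fat replicate 1 or males on 44% fat replicate 3, and with no filter on low counts it had an adjusted p of 0.056. In NZO/HlLtJ the diet effect was -0.01 (SE 0.08) and in C57BL/6J 0.20 (SE 0.08, adjusted p 0.77). The difference of the diet effects did not pass between CAST/EiJ and C57BL/6J (0.14, SE 0.12, adjusted p 0.81) or between NZO/HlLtJ and CAST/EiJ (-0.35, SE 0.12, adjusted p 0.15), so the rise was not shown to be particular to CAST/EiJ.

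Between strains on 10% fat, mean Ren1 in females was 83.3 ± 6.1 CPM in NZO/HlLtJ, 134 ± 8.3 CPM in CAST/EiJ and 55.5 ± 7.7 CPM in C57BL/6J (SD, n = 4 each). In males it was 48.3 ± 8.0 CPM in NZO/HlLtJ (n = 4), 82.9 ± 1.1 CPM in CAST/EiJ (n = 3) and 34.6 ± 3.8 CPM in C57BL/6J (n = 4). CAST/EiJ exceeded C57BL/6J (log2 fold change 1.27, SE 0.09, adjusted p 1.37e-15) and NZO/HlLtJ exceeded it by 0.55 (SE 0.09, adjusted p 1.63e-06), and NZO/HlLtJ was lower than CAST/EiJ (-0.72, SE 0.09, adjusted p 4.14e-09). Some mouse strains carry a second renin gene, Ren2, whose sequence is close to that of Ren1. It is not analysed here, and its part in the strain differences was not tested.

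Over both diets the lowest, median and highest Ren1 libraries were 76.8, 88.2 and 100.4 CPM in females and 37.9, 43.8 and 56.5 CPM in males of NZO/HlLtJ. In CAST/EiJ they were 123, 150 and 211 CPM in females and 81.7, 83.8 and 105 CPM in males, and in C57BL/6J 50.7, 53.7 and 69.9 CPM in females and 29.9, 37.0 and 55.5 CPM in males. The sexes overlapped in C57BL/6J only. The log2 fold change of females over males was 0.98 (SE 0.08, adjusted p 1.4e-12) in NZO/HlLtJ, 0.84 (SE 0.09, adjusted p 2.67e-10) in CAST/EiJ and 0.56 (SE 0.09, adjusted p 9.58e-07) in C57BL/6J, and it was larger in NZO/HlLtJ than in C57BL/6J by 0.42 (SE 0.12, adjusted p 0.0275). That last call was lost without C57BL/6J males on 44% fat replicate 2 (0.34, adjusted p 0.0793), C57BL/6J males on 10% fat replicate 2, NZO/HlLtJ males on 44% fat replicate 4 or C57BL/6J females on 10% fat replicate 4. Markers of the vessel wall and glomerulus were also higher in females, but so were those of other cell types. In NZO/HlLtJ, median sums in females and males were 5287 and 3349 CPM for thick ascending limb. They were 958 and 603 CPM for distal tubule. Macrophage (70.1 and 86.5 CPM) and liver (117 and 213 CPM) markers went the other way there. The 6 smooth muscle, mesangium and pericyte markers summed to 129 to 152 CPM in females and 96.8 to 134 CPM in males of NZO/HlLtJ, 186 to 252 CPM in females and 149.7 to 184 CPM in males of CAST/EiJ, and 151 to 199 CPM in females and 126 to 142 CPM in males of C57BL/6J. Of the 6 smooth muscle, mesangium and pericyte markers, 4 were higher in females of NZO/HlLtJ, 4 in CAST/EiJ and 6 in C57BL/6J. Of all genes, 49.9%, 47.6% and 47.9% passed for sex in these strains, in either direction. All 5 podocyte markers were higher in females of each strain, with medians of 0.66, 0.53 and 0.52 in log2. The part of these markers in the sex difference of Ren1 was not tested.

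Atp6ap2 encodes the prorenin receptor, which is also an accessory subunit of the vacuolar proton pump, and lies on chromosome X (12587801 to 12617049, GRCm38). It varied little. Across all libraries it was at 86.0 to 131 CPM, with a median of 103 CPM. Females exceeded males (log2 fold change 0.14, SE 0.04, adjusted p 0.00141) in NZO/HlLtJ, 0.22 (SE 0.04, adjusted p 3.00e-06) in CAST/EiJ and 0.13 (SE 0.04, adjusted p 0.0022) in C57BL/6J, and the sexes overlapped except in CAST/EiJ, where females were at 114 to 131 CPM and males at 102 to 106 CPM. CAST/EiJ exceeded C57BL/6J by 0.20 (SE 0.04, adjusted p 1.86e-05), while NZO/HlLtJ differed from C57BL/6J by 0.01 (SE 0.04). Diet effects were 0.00 to 0.07 in log2 and did not pass. Of its 31-base words 7.38% also occur in the gene model Gm36448.

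Ace encodes angiotensin-converting enzyme, which makes angiotensin II and degrades bradykinin and lies in the kidney on proximal tubule brush border and vascular endothelium. It is on the plus strand of chromosome 11 (105967945 to 105989964, GRCm38). On 44% fat Ace fell in NZO/HlLtJ. Within single sexes the fall passed the test in males and not in females. The promoter of the longer, somatic transcript is shown because Ace was the gene with a diet difference between strains (chr11:105967698-105967997, plus strand, GRCm38.p6). Capitals mark GC boxes and, on the opposite strand, a TATA box.
Ace: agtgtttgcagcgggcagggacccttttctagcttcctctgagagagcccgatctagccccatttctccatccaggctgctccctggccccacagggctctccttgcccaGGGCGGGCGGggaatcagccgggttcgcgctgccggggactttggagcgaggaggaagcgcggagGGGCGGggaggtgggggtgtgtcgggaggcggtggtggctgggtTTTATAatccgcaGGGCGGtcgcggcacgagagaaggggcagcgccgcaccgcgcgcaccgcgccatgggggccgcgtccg

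GC boxes (GGGCGG, on either strand, present in 35.7% of all promoters) matched 4 times, of which 2 adjoining matches overlap. The letters TATAAA occur on the opposite strand 31 bases before the start. The second RefSeq promoter of Ace, inside the gene, held neither. These matches describe the reference genome, and the promoters of NZO/HlLtJ and CAST/EiJ were not analysed here.

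In NZO/HlLtJ males Ace was at 158, 230, 164 and 180 CPM on 44% fat and at 356, 318, 338 and 304 CPM on 10% fat. All 4 males on 44% fat lay below all 4 on 10% fat, the means being 183 ± 33 CPM on 44% fat and 329 ± 23 CPM on 10% fat (SD, n = 4 each), a ratio of 0.557. The log2 fold change was -0.82 (SE 0.11, adjusted p 3.49e-05), in a comparison where 3.51% of all genes passed the test. Within run 77, which held 2 males on each diet, it was -0.82. In NZO/HlLtJ females Ace was at 218, 194, 173 and 232 CPM on 44% fat and at 213, 251, 207 and 256 CPM on 10% fat, which overlapped. Their log2 fold change of -0.21 (SE 0.11, adjusted p 0.55) did not pass, in a comparison where 0.149% of genes did. The diet effect of females minus that of males was 0.61 (SE 0.16, unadjusted p 0.000388, adjusted p 0.22), so the fall was not shown to differ between the sexes by edgeR. DESeq2's Wald test gave an adjusted p of 0.044, and without NZO/HlLtJ males on 44% fat replicate 2, the highest of that group, edgeR gave 0.77 (adjusted p 0.0497). With both sexes averaged, the log2 fold change in NZO/HlLtJ was -0.51 (SE 0.07, adjusted p 6.03e-05), and -0.49 within run 77.

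In CAST/EiJ the averages of Ace lay on the other side. Females were at 301, 308, 311 and 303 CPM on 44% fat and at 261, 305, 259 and 238 CPM on 10% fat, and males at 270, 334, 302 and 264 CPM on 44% fat and at 251, 242 and 268 CPM on 10% fat. The ranges overlapped in both sexes, and the log2 fold change of 0.21 (SE 0.08, adjusted p 0.18) did not pass. In C57BL/6J females Ace was at 344, 363, 358 and 425 CPM on 44% fat and at 330, 328, 327 and 347 CPM on 10% fat, and in males at 395, 371, 505 and 433 CPM on 44% fat and at 459, 366, 486 and 439 CPM on 10% fat. These overlapped too, at 0.06 in log2 (SE 0.07, adjusted p 0.997). The diet effect differed between NZO/HlLtJ and C57BL/6J (-0.57, SE 0.10, adjusted p 0.0428) and between NZO/HlLtJ and CAST/EiJ (-0.73, SE 0.11, adjusted p 0.000204). Within run 77 these differences were -0.41 and -0.65. The difference from CAST/EiJ passed in every fit run. The difference from C57BL/6J was -0.64 to -0.53 when 1 library was left out, with an adjusted p of 0.00126 to 0.0983, and passed in 16 of 32 such fits. It was lost without NZO/HlLtJ females on 44% fat replicate 2 or 3, females on 10% fat replicate 2 or 4, males on 44% fat replicate 1 or 4 or males on 10% fat replicate 1, and without C57BL/6J females on 44% fat replicate 2, 3 or 4, females on 10% fat replicate 1, 3 or 4 or males on 10% fat replicate 1, 2 or 4. For CAST/EiJ minus C57BL/6J it was 0.15 (SE 0.11, adjusted p 0.75). These comparisons share libraries of NZO/HlLtJ or of C57BL/6J.

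On 10% fat Ace was lower in NZO/HlLtJ than in C57BL/6J (log2 fold change -0.46, SE 0.07, adjusted p 2.94e-06) and lower in CAST/EiJ than in C57BL/6J (-0.56, SE 0.08, adjusted p 6.16e-08). The difference of NZO/HlLtJ from CAST/EiJ, 0.09 (SE 0.08), did not pass. Females had less Ace than males in C57BL/6J (-0.28, SE 0.08, adjusted p 0.00209) and in NZO/HlLtJ (-0.17, SE 0.07, adjusted p 0.0491). The female value for CAST/EiJ was 0.06 (SE 0.08), which differed from C57BL/6J by 0.34 (SE 0.11, adjusted p 0.0277). The NZO/HlLtJ value passed in 7 of 16 fits that left out 1 library (adjusted p 0.0203 to 0.213) and was lost without females on 44% fat replicate 2 or 3, females on 10% fat replicate 1 or 3, males on 44% fat replicate 2 or 4 or males on 10% fat replicate 1, 2 or 3. It was also lost under 4 of the 7 other settings, which were DESeq2 size factors (adjusted p 0.0522), limma-voom (0.0828), limma on the deposited log2 matrix (0.0519) and only the strains compared (0.0895). The CAST/EiJ difference was lost without CAST/EiJ males on 44% fat replicate 1 or 4 or females on 10% fat replicate 2 (0.28, adjusted p 0.0817). In NZO/HlLtJ the ratio of female to male mean CPM was 1.12 on 44% fat and 0.704 on 10% fat. The lowest mean Ace level of the 12 groups was that of NZO/HlLtJ males on 44% fat. In NZO/HlLtJ males the 8 proximal tubule markers summed to 18019 to 18596 CPM on 44% fat and 16954 to 17735 CPM on 10% fat. For diet in these males, where 3.51% of all genes passed, 0 of the 8 passed. None of the 7 endothelial markers passed in that comparison. With so few markers these counts are near the share of all genes and do not show that the cells were unchanged. The 3 principal cell markers were higher on 44% fat, summing to 120 to 262 CPM there and 109 to 141 CPM on 10% fat. Of the 3 thick ascending limb markers 1 was lower, and their sum was 2778 to 3326 CPM on 44% fat and 3371 to 3688 CPM on 10% fat. Their part in the result was not tested. Ace shares 295 exon bases with the opposite-strand gene Gm11651, which is at 0 to 0.0666 CPM in these libraries.

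**Figure D2:**
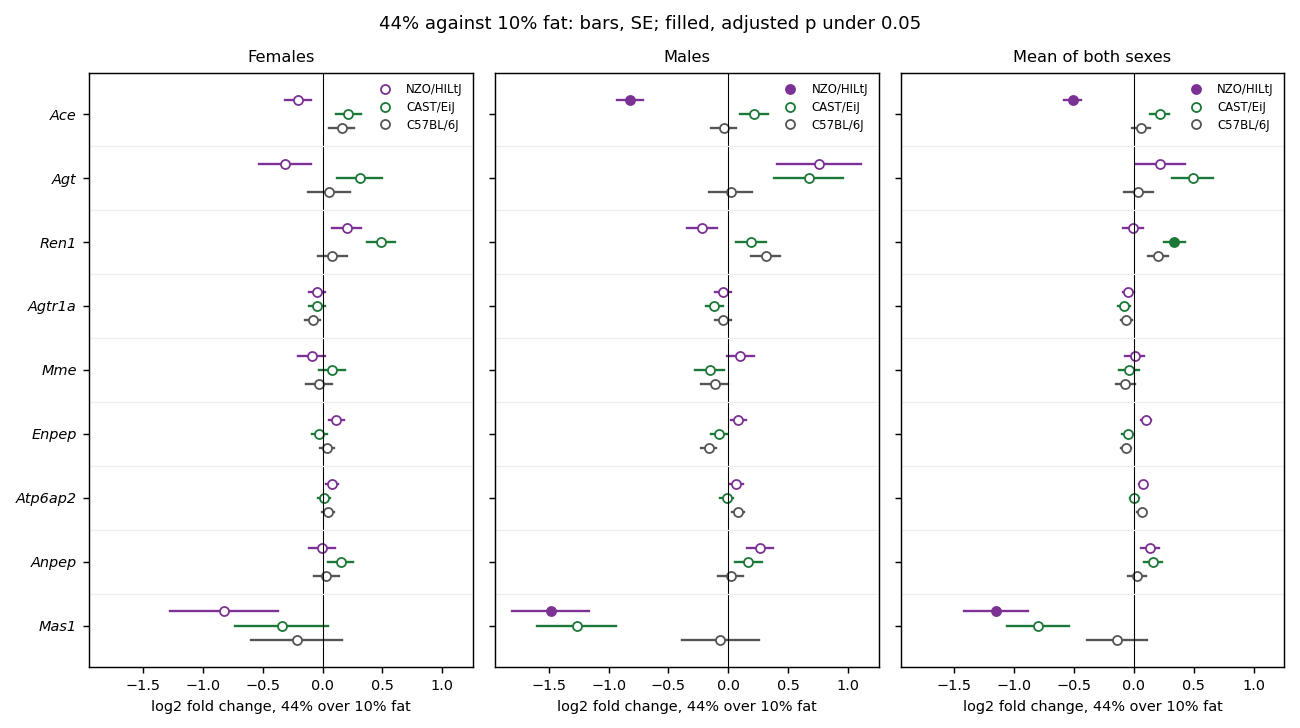
Diet effect of the 9 genes as log2 fold change of 44% over 10% fat (horizontal axis) in females, males and the mean of both sexes, by strain. Points are the fitted values, bars the standard error, and filled points have an adjusted p under 0.05. Ace (-0.82) and Mas1 (-1.48) are filled in NZO/HlLtJ males, and Ren1 (0.34) is filled in the mean of both sexes of CAST/EiJ.

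Mme, Enpep and Anpep encode membrane peptidases of the brush border. Neprilysin (Mme) forms angiotensin-(1-7) from angiotensin I, aminopeptidase A (Enpep) turns angiotensin II into angiotensin III, and aminopeptidase N (Anpep) turns angiotensin III into angiotensin IV. Diet effects did not pass for any of the 3 in any strain, and they differed from one another by sex and strain.

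Mme was higher in females in each strain, with no overlap. The lowest, median and highest libraries were 389, 478 and 538 CPM in females and 151, 169 and 234 CPM in males of NZO/HlLtJ. They were 228, 254 and 294 CPM in females and 80.8, 99.9 and 121 CPM in males of CAST/EiJ, and 337, 396 and 426 CPM in females and 172, 225 and 272 CPM in males of C57BL/6J. Females exceeded males (log2 fold change 1.41, SE 0.08, adjusted p 4.03e-18) in NZO/HlLtJ, 1.33 (SE 0.08, adjusted p 2.01e-16) in CAST/EiJ and 0.76 (SE 0.08, adjusted p 1.70e-10) in C57BL/6J. The sex difference exceeded that of C57BL/6J by 0.65 (SE 0.11, adjusted p 0.000106) in NZO/HlLtJ and by 0.56 (SE 0.11, adjusted p 0.000403) in CAST/EiJ. On 10% fat CAST/EiJ was lower than C57BL/6J (-0.89, SE 0.08, adjusted p 5.62e-12), and NZO/HlLtJ was higher than CAST/EiJ by 0.80 (SE 0.08, adjusted p 9.64e-11). The value of NZO/HlLtJ against C57BL/6J, -0.08 (SE 0.08), averages a female mean of 489 ± 45 CPM in NZO/HlLtJ and 395 ± 17 CPM in C57BL/6J with a male mean of 166 ± 13 CPM in NZO/HlLtJ and 235 ± 25 CPM in C57BL/6J (SD, n = 4 each).

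Enpep was higher in males of NZO/HlLtJ. Females there ranged over 187, 199 and 214 CPM and males over 260, 285 and 310 CPM (lowest, median and highest), which did not overlap. In CAST/EiJ they ranged over 79.4, 93.8 and 100.1 CPM in females and 87.0, 96.9 and 101 CPM in males, and in C57BL/6J over 158, 164 and 178 CPM in females and 150, 184 and 200 CPM in males, and both pairs overlapped. The log2 fold change of females over males was -0.53 (SE 0.04, adjusted p 9.22e-14) in NZO/HlLtJ, -0.08 (SE 0.04, adjusted p 0.16) in CAST/EiJ and -0.13 (SE 0.04, adjusted p 0.0128) in C57BL/6J. The C57BL/6J value was lost without males on 44% fat replicate 2 (-0.10, adjusted p 0.0569). The NZO/HlLtJ value differed from C57BL/6J (-0.40, SE 0.06, adjusted p 1.31e-05) and from CAST/EiJ (-0.45, SE 0.06, adjusted p 5.62e-07). Between strains on 10% fat, NZO/HlLtJ was higher than C57BL/6J by 0.40 (SE 0.04, adjusted p 3.33e-10), CAST/EiJ was lower than C57BL/6J (-0.88, SE 0.05, adjusted p 2.54e-20), and NZO/HlLtJ was higher than CAST/EiJ by 1.28 (SE 0.05, adjusted p 1.03e-25).

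Anpep did not pass the test for sex in any strain, with log2 fold changes of females over males of -0.08 (SE 0.07) in NZO/HlLtJ, -0.13 (SE 0.08) in CAST/EiJ and -0.01 (SE 0.07) in C57BL/6J. It was highest in CAST/EiJ, where on 10% fat females averaged 281 ± 34 CPM (n = 4) and males 306 ± 13 CPM (n = 3), against 217 ± 17 CPM in C57BL/6J females and 219 ± 17 CPM in C57BL/6J males (SD, n = 4 each). CAST/EiJ exceeded C57BL/6J (log2 fold change 0.43, SE 0.08, adjusted p 7.43e-06), and NZO/HlLtJ was lower than CAST/EiJ (-0.31, SE 0.08, adjusted p 0.00062). In NZO/HlLtJ males, where Ace was lower on 44% fat, Anpep averaged 279 ± 31.5 CPM on 44% fat and 230 ± 23 CPM on 10% fat, or 0.27 in log2 (SE 0.11, adjusted p 0.16).

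**Figure D3:**
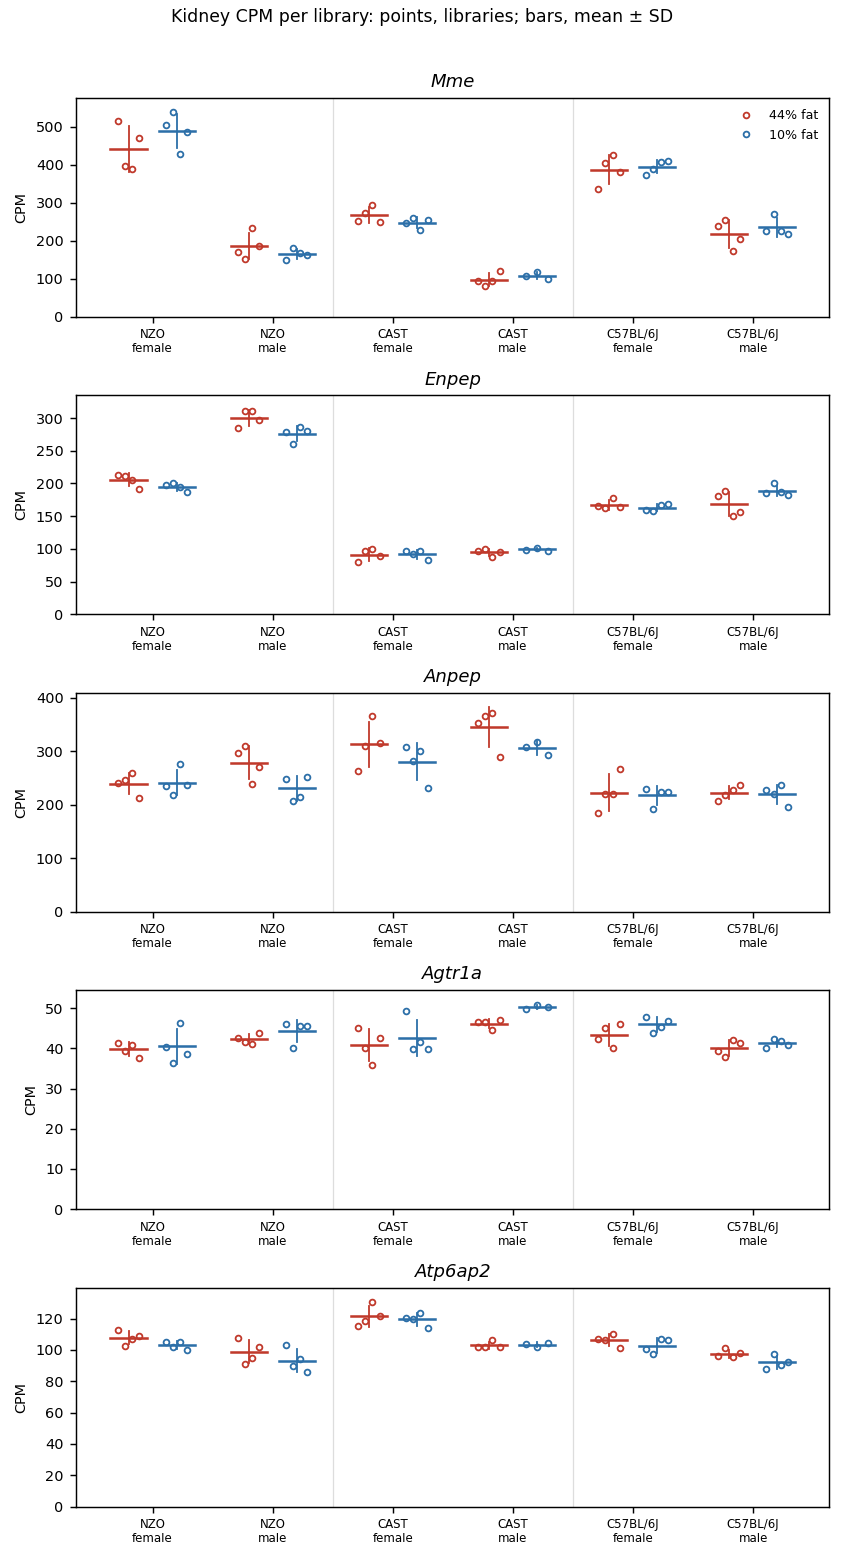
CPM of Mme, Enpep, Anpep, Agtr1a and Atp6ap2 (vertical axes, from 0) in each library by strain and sex, with 44% fat in red to the left of 10% fat in blue. Points are libraries and bars are the mean ± SD of 4 libraries (3 in CAST/EiJ males on 10% fat). Mme is at 228 CPM or more in all females and Enpep is highest in NZO/HlLtJ males (260 to 310 CPM).

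Agtr1a encodes the main mouse type 1 angiotensin II receptor and lies on chromosome 13 (30336441 to 30382867, GRCm38). It had the narrowest range of the 9, from 35.8 to 50.9 CPM over all libraries. Diet effects were -0.05 (SE 0.05) in NZO/HlLtJ, -0.08 (SE 0.05) in CAST/EiJ and -0.06 (SE 0.05) in C57BL/6J and did not pass. The sex difference took opposite signs. Females were lower than males in NZO/HlLtJ (-0.11, SE 0.05, adjusted p 0.0473) and in CAST/EiJ (-0.21, SE 0.05, adjusted p 0.000358), and higher than males in C57BL/6J (0.15, SE 0.05, adjusted p 0.00936), and the difference of these effects passed for NZO/HlLtJ minus C57BL/6J (-0.25, SE 0.07, adjusted p 0.0132) and for CAST/EiJ minus C57BL/6J (-0.36, SE 0.07, adjusted p 0.000141). The sexes overlapped in every strain. Sex differences this small depend on the TMM factors, which split by sex. The NZO/HlLtJ sex difference passed in 6 of 16 fits that left out 1 library (adjusted p 0.0039 to 0.148) and was lost without females on 44% fat replicate 2 or 4, females on 10% fat replicate 1, 2 or 4, males on 44% fat replicate 1 or 4 or males on 10% fat replicate 1, 3 or 4, and with only the strains compared (adjusted p 0.0563). Between strains on 10% fat, only NZO/HlLtJ against CAST/EiJ passed, at -0.13 (SE 0.05, adjusted p 0.0212), and it was lost with no filter on low counts (adjusted p 0.0557), with only the strains compared (0.0547), and without NZO/HlLtJ females or males on 10% fat replicate 2, CAST/EiJ females on 10% fat replicate 1 (-0.08, adjusted p 0.128) or CAST/EiJ males on 10% fat replicate 2. Agtr1a shares 3.68% of its 31-base words with other genes, mostly Agtr1b, the second mouse type 1 receptor gene, which was at 0 to 0.180 CPM.

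Mas1 encodes the Mas receptor of angiotensin-(1-7) and lies on the minus strand of chromosome 17 (12841079 to 12868143, GRCm38). It had the lowest level per kilobase of the 9 by the median over groups, with 3 to 223 counts per library. It was higher in males of each strain, and on 44% fat it fell in NZO/HlLtJ. Males of NZO/HlLtJ had 1.20, 1.94, 1.38 and 1.46 CPM on 44% fat and 5.13, 4.12, 3.44 and 3.70 CPM on 10% fat, which did not overlap. The log2 fold change was -1.48 (SE 0.32, adjusted p 0.00708), and -1.58 within run 77. It was lost without males on 44% fat replicate 1 (-1.35, adjusted p 0.0645). In NZO/HlLtJ females it was at 0.367, 0.0582, 0.190 and 0.0911 CPM on 44% fat and at 0.358, 0.200, 0.316 and 0.409 CPM on 10% fat, which overlapped, at -0.83 in log2 (SE 0.45, adjusted p 0.57). As the mean of both sexes it was -1.15 (SE 0.27, adjusted p 0.00939).

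In CAST/EiJ males Mas1 was at 1.67, 1.51, 1.49 and 0.769 CPM on 44% fat and at 3.11, 4.29 and 2.43 CPM on 10% fat. These did not overlap either, but the log2 fold change of -1.27 (SE 0.33, adjusted p 0.059) did not pass, nor did the mean of both sexes, -0.80 (SE 0.26, adjusted p 0.11). The mean of both sexes passed under limma-voom (-0.99, adjusted p 0.0242) and under limma on the deposited log2 matrix (-0.39, adjusted p 0.0208). In males it passed under limma-voom (-1.33, adjusted p 0.00128), under limma on the deposited log2 matrix (-0.67, adjusted p 0.00561) and under DESeq2's Wald test (-1.27, adjusted p 0.0187). The deposited values are variance-stabilized, so their differences at such low counts are not on the scale of the other log2 fold changes. In C57BL/6J males Mas1 was at 1.04, 0.900, 1.87 and 0.823 CPM on 44% fat and at 1.37, 0.571, 1.4 and 1.53 CPM on 10% fat, which overlapped. The mean of both sexes was -0.14 (SE 0.25). The diet effect was not shown to differ between strains, at -1.01 (SE 0.37, adjusted p 0.53) for NZO/HlLtJ minus C57BL/6J and -0.35 (SE 0.37, adjusted p 0.74) for NZO/HlLtJ minus CAST/EiJ.

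Over both diets Mas1 did not overlap between the sexes in any strain. The lowest, median and highest libraries were 0.0582, 0.258 and 0.409 CPM in females and 1.20, 2.69 and 5.13 CPM in males of NZO/HlLtJ. They were 0.148, 0.487 and 0.627 CPM in females and 0.769, 1.67 and 4.29 CPM in males of CAST/EiJ, and 0.231, 0.431 and 0.552 CPM in females and 0.571, 1.21 and 1.87 CPM in males of C57BL/6J. The log2 fold change of females over males was -3.36 (SE 0.26, adjusted p 2.78e-14) in NZO/HlLtJ, -2.31 (SE 0.25, adjusted p 3.87e-10) in CAST/EiJ and -1.55 (SE 0.26, adjusted p 2.59e-06) in C57BL/6J. It was more negative in NZO/HlLtJ than in C57BL/6J (-1.81, SE 0.37, adjusted p 0.00108) and than in CAST/EiJ (-1.05, SE 0.37, adjusted p 0.0498). The difference from CAST/EiJ was -1.34 to -0.88 when 1 library was left out, with an adjusted p of 0.0116 to 0.109, and passed in 7 of 31 such fits, those without NZO/HlLtJ females on 44% fat replicate 1, NZO/HlLtJ females on 10% fat replicate 4, NZO/HlLtJ males on 44% fat replicate 1, CAST/EiJ females on 44% fat replicate 3 or 4, CAST/EiJ females on 10% fat replicate 2 or CAST/EiJ males on 10% fat replicate 2. It was lost with no filter on low counts (adjusted p 0.0517), under limma-voom (0.13) and under limma on the deposited log2 matrix (0.0567). On 10% fat CAST/EiJ was higher than C57BL/6J by 0.74 (SE 0.25, adjusted p 0.00998; 0.59 and 0.0544 without CAST/EiJ males on 10% fat replicate 2), and NZO/HlLtJ against C57BL/6J was 0.59 (SE 0.25, adjusted p 0.063). The value for NZO/HlLtJ passed under 5 of the 7 other settings, which were no run term (adjusted p 0.039), limma-voom (0.031), limma on the deposited log2 matrix (0.000288), DESeq2's Wald test (0.0428) and only the strains compared (0.0448). It averages a ratio of NZO/HlLtJ to C57BL/6J in mean CPM of 0.718 in females and 3.36 in males. Mas1 overlaps the span of the opposite-strand gene Airn, which was at 1.14 to 10.0 CPM. They share no exon bases, but whether the counting used strand is not given in the sources used here, so reads of Airn and of Mas1 in the same place cannot be told apart.

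**Figure D4:**
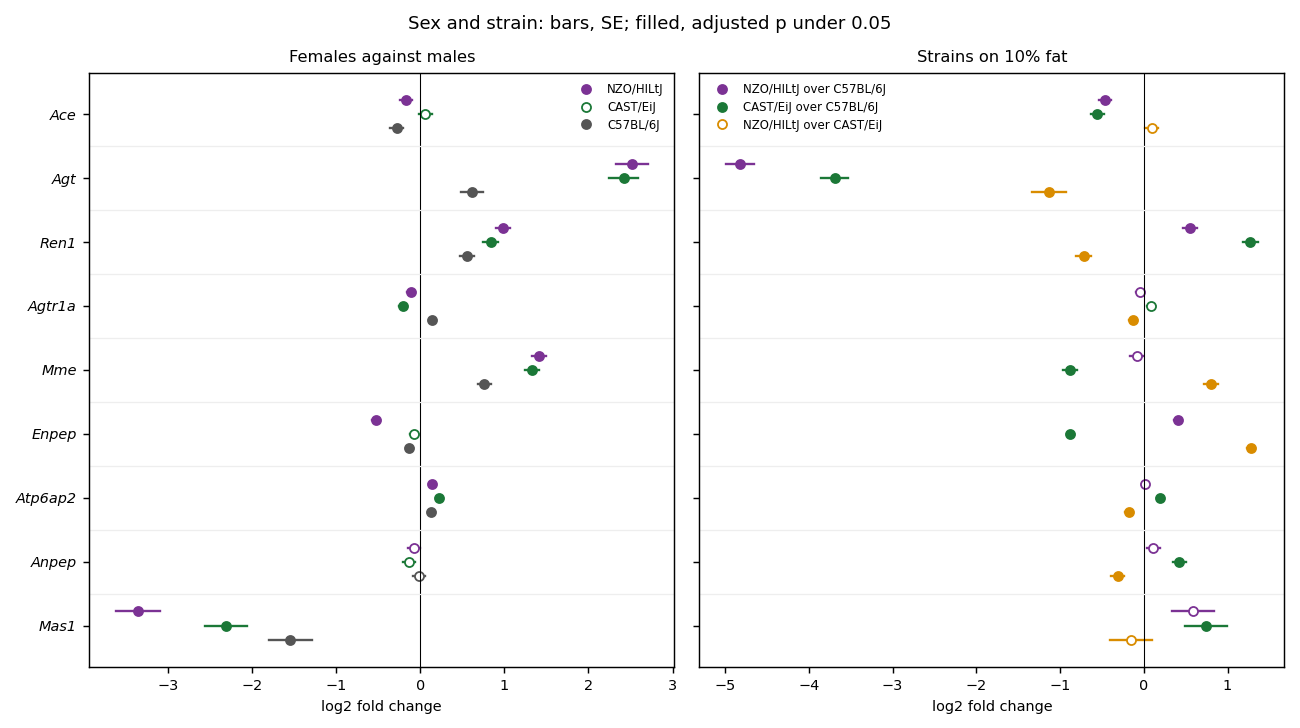
Log2 fold changes (horizontal axes) of the 9 genes for females over males by strain, and for each pair of strains on 10% fat. Points are the fitted values, bars the standard error, and filled points have an adjusted p under 0.05. Agt (0.61 to 2.51) and Mas1 (-3.36 to -1.55) lie on opposite sides of 0 in the sex panel, and Agt lies farthest from 0 in both comparisons with C57BL/6J (-4.82 and -3.69), while Enpep (1.28) does so for NZO/HlLtJ over CAST/EiJ.

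The counts over the 9 genes stand beside the share of all tested genes that passed in the same comparison. For 44% against 10% fat, 2 of the 9 passed in NZO/HlLtJ (Ace and Mas1, both lower; 3.62% of all genes), 1 in CAST/EiJ (Ren1, higher; 0.990%) and 0 in C57BL/6J (0.0266%). At an unadjusted p under 0.05 the counts were 4, 5 and 1. The share of all genes at an unadjusted p under 0.05 was not counted. Such counts, here and below, therefore have no background and are not a result about the genes listed. The members' medians were 0.01, 0.00 and 0.03 in log2, and the medians of all genes were 0.00 in each strain. For differences of the diet effect, Ace passed for NZO/HlLtJ minus C57BL/6J (0.0373% of all genes) and for NZO/HlLtJ minus CAST/EiJ (1.28%), and 0 passed for CAST/EiJ minus C57BL/6J (0.0532%). For the difference of the diet effect between females and males, 0 passed in NZO/HlLtJ (0.00532% of all genes), CAST/EiJ (0.0479%) and C57BL/6J (0%), and 3, 0 and 1 had an unadjusted p under 0.05. Within single sexes, 2 passed in NZO/HlLtJ males (3.51%) and 0 in NZO/HlLtJ females (0.149%), CAST/EiJ females (0.144%), CAST/EiJ males (0.580%), C57BL/6J females (0%) and C57BL/6J males (0.00532%). At an unadjusted p under 0.05 these counts were 4, 0, 2, 2, 0 and 2.

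Sex and strain gave larger counts, on a larger background. Of the 9 genes, 8 differed between females and males in NZO/HlLtJ (4 higher and 4 lower; 49.9% of all genes), 6 in CAST/EiJ (4 higher and 2 lower; 47.6%) and 8 in C57BL/6J (5 higher and 3 lower; 47.9%). Agt, Ren1, Mme and Atp6ap2 were higher and Mas1 was lower in females of all 3 strains. Between strains on 10% fat, 4 differed between NZO/HlLtJ and C57BL/6J (36.9% of all genes), 8 between CAST/EiJ and C57BL/6J (60.0%) and 7 between NZO/HlLtJ and CAST/EiJ (59.1%). The sex difference itself differed from that of C57BL/6J for 6 genes in NZO/HlLtJ (4.95% of all genes) and for 4 in CAST/EiJ (13.2%), and for 2 between NZO/HlLtJ and CAST/EiJ (14.3%).

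Other genes of the renin-angiotensin, aldosterone and kinin pathways were taken from a list of 28, of which 26 were in the table and 22 were tested. On 44% fat 1 passed in NZO/HlLtJ and was higher (3.62% of all genes passed), and 1 passed in CAST/EiJ and was higher (0.990%). In C57BL/6J 0 passed (0.0266%), and 1 had an unadjusted p under 0.05. The NZO/HlLtJ count is close to the share of all genes. The list medians were 0.02, 0.04 and 0.01 in log2 beside 0.00 for all genes. The gene in NZO/HlLtJ was Nln, for neurolysin, a peptidase that cleaves angiotensin I (0.20, SE 0.04, adjusted p 0.00193). In CAST/EiJ Ctsd, the lysosomal protease cathepsin D, rose by 0.20 (SE 0.04, adjusted p 0.0195). It was at 402 ± 13.2 CPM on 44% fat and 363 ± 16.4 CPM on 10% fat in females (SD, n = 4 each), and at 368 ± 25.9 CPM on 44% fat (n = 4) and 312 ± 12.8 CPM on 10% fat (n = 3) in males. The call was lost without CAST/EiJ females on 44% fat replicate 4, males on 44% fat replicate 2 or males on 10% fat replicate 2, and with only the CAST/EiJ libraries in the fit.

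By sex, 9 of the 22 were higher and 5 lower in NZO/HlLtJ females (49.9% of all genes passed), 11 higher and 4 lower in CAST/EiJ females (47.6%), and 11 higher and 6 lower in C57BL/6J females (47.9%). Kng2, a kininogen gene, was higher in females of all 3 strains (0.87, 0.81 and 0.60 in the order NZO/HlLtJ, CAST/EiJ, C57BL/6J), and Nln was lower (-0.39, -0.56 and -0.33). In CAST/EiJ the strongest was Kng1, kininogen 1, at 3.24 (SE 0.08, adjusted p 2.20e-31), and Tmem27, the gene of collectrin, was lower in females (-0.49, SE 0.05, adjusted p 6.97e-11). In strain comparisons on 10% fat, 4 were higher and 10 lower in NZO/HlLtJ than in C57BL/6J (36.9% of all genes passed), and 7 were higher and 6 lower in CAST/EiJ than in C57BL/6J, a share close to the 60.0% of all genes that passed. Kng1 was 4.85 higher in log2 in CAST/EiJ than in C57BL/6J (SE 0.09, adjusted p 1.03e-35), with 131 ± 19 CPM in CAST/EiJ females and 1.68 ± 0.27 CPM in C57BL/6J females on 10% fat (SD, n = 4 each). Prcp, a carboxypeptidase that cleaves angiotensin II, was higher than in C57BL/6J in NZO/HlLtJ (0.77, SE 0.06, adjusted p 3.17e-15) and CAST/EiJ (1.22, SE 0.06, adjusted p 5.75e-22). Klk1, tissue kallikrein, was lower in NZO/HlLtJ (-0.70, SE 0.07, adjusted p 9.31e-12) and CAST/EiJ (-1.56, SE 0.07, adjusted p 1.98e-22).

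Of 10 genes of renin cells and the macula densa, all tested, 0 passed for diet in CAST/EiJ (0.990% of all genes) and C57BL/6J (0.0266%). In these strains 2 and 1 had an unadjusted p under 0.05. In NZO/HlLtJ (3.62%) 1 passed. It was Ptgs2, the cyclooxygenase whose macula densa product stimulates renin release, at a log2 fold change of 0.97 on 44% fat (SE 0.27, adjusted p 0.0368). The call was lost without females on 44% fat replicate 1, 2 or 3, females on 10% fat replicate 1, 3 or 4, males on 44% fat replicate 1 or 4 or males on 10% fat replicate 1, 2 or 4 of NZO/HlLtJ, and under 3 of the 7 other settings. Ptgs2 in NZO/HlLtJ males was at 2.04 ± 1.09 CPM on 44% fat and 0.791 ± 0.336 CPM on 10% fat (SD, n = 4 each), and Ren1 there was at 41.8 ± 2.8 CPM on 44% fat and 48.3 ± 8.0 CPM on 10% fat. By sex, 8 were higher and 1 lower in females of NZO/HlLtJ and of CAST/EiJ, and 8 were higher and 0 lower in C57BL/6J, beside 49.9%, 47.6% and 47.9% of all genes called, with list medians of 0.63, 0.56 and 0.46 beside 0.04, 0.05 and 0.05 for all genes. Nos1, the neuronal nitric oxide synthase of the macula densa, was higher in females of NZO/HlLtJ (1.69, SE 0.13, adjusted p 1.85e-14), CAST/EiJ (0.73, SE 0.13, adjusted p 1.38e-05) and C57BL/6J (1.39, SE 0.14, adjusted p 5.14e-11). Rgs5, a marker of pericytes and arteriolar muscle, was also higher in females of NZO/HlLtJ (0.37, SE 0.08, adjusted p 0.000162), CAST/EiJ (0.68, SE 0.09, adjusted p 2.62e-08) and C57BL/6J (0.44, SE 0.08, adjusted p 2.19e-05). Between CAST/EiJ and C57BL/6J on 10% fat, 3 of the 10 were higher and 2 lower, a share below the 60.0% of all genes that passed. Akr1b7, an aldo-keto reductase of renin cells, was higher there by 1.80 (SE 0.15, adjusted p 1.04e-13), while Rgs5 was lower (-1.21, SE 0.09, adjusted p 3.90e-15).

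Of 14 brush border enzymes and receptors that are not among the 9, 3 were higher and 1 lower on 44% fat in NZO/HlLtJ (3.62% of all genes). In CAST/EiJ (0.990%) and C57BL/6J (0.0266%) 0 passed, and 5 and 1 had an unadjusted p under 0.05. DESeq2's Wald test called 2 in CAST/EiJ and limma-voom called 3. The NZO/HlLtJ count of 4 was 2 without females on 44% fat replicate 4, females on 10% fat replicate 3 or males on 44% fat replicate 1. The one lower was Mep1b, the beta subunit of the metalloprotease meprin, at -0.51 (SE 0.07, adjusted p 2.41e-05). Mep1b was the one of the 14 that passed in NZO/HlLtJ males, where 3.51% of all genes did. It was at -0.64 (SE 0.10, adjusted p 0.000349) there, with 270 ± 46 CPM on 44% fat and 410 ± 50 CPM on 10% fat (SD, n = 4 each). The higher ones were Naaladl1, an aminopeptidase-like protein (0.73, SE 0.14, adjusted p 0.00178), Xpnpep2, an aminopeptidase that can cleave bradykinin (0.44, SE 0.11, adjusted p 0.0192), and Dpp4, dipeptidyl peptidase 4 (0.19, SE 0.05, adjusted p 0.0256). The list median in NZO/HlLtJ was 0.00 in log2.

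**Figure D5:**
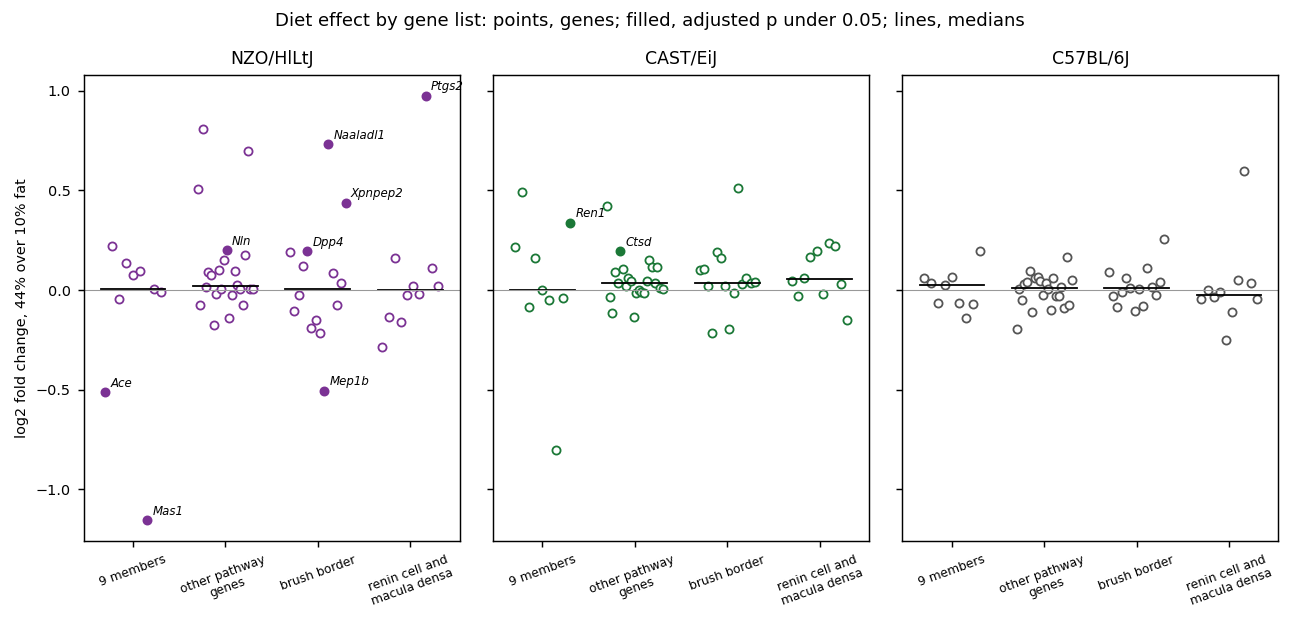
Log2 fold change of 44% over 10% fat (vertical axis) for the 9 genes and the 3 gene lists, by strain. Points are genes, filled points have an adjusted p under 0.05 and carry the gene's name, and lines are medians. In NZO/HlLtJ 2 of the 9 genes and 6 genes of the lists are filled, in CAST/EiJ 1 and 1, and in C57BL/6J 0.

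Correlations of mean log2 CPM over the 12 groups describe which genes varied most like each of the 9. The groups share strains, so no p is given. The gene most like Ace was Irf2bpl (Pearson r 0.95), followed by Grb7 and Poll (0.93 each). Ren1 was most like Map2k3 (0.98), Agt like Dusp23 (0.97), Mme like St3gal6 (0.99), Enpep like Sirt4 (0.98), Anpep like Surf6 (0.97), Atp6ap2 like Gimap6 (0.97), Mas1 like Foxred2 (0.96) and Agtr1a like Zfp763 (0.89). Among the 9 themselves the highest value was that of Ren1 with Atp6ap2 (0.91) and the lowest that of Mme with Mas1 (-0.83). Ace correlated with Ren1 at -0.34 and with Agt at 0.67.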

How the data were processed

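Kidney polyadenylated RNA was sequenced in 47 libraries as 100 bp read pairs to a target of 30 M pairs, per the labels' protocols. The authors deposited estimated counts per gene, of which 21.0% of values are not whole numbers (tolerance 1e-06), and a matrix of variance-stabilized log2 values that the authors made from them. The submitters' processing notes name GRCm38 and DESeq2, and the aligner, counter and strand setting are not given in the sources used here.

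Estimated counts were rounded, filtered with filterByExpr over the 12 groups (18786 of 22474 genes kept), scaled by TMM and fitted with edgeR 4.0.16 in R 4.3.3 (robust quasi-likelihood, 33 residual degrees of freedom, group means plus a run term, from 3 blocks of sample IDs). Benjamini-Hochberg adjustment ran over all 18786 genes, with a threshold of 0.05. A diet or sex effect is the mean of both sexes or both diets unless a group is named. Levels per kilobase used exon unions of GENCODE M21. Promoters came from RefSeq. The procedure was run on counts simulated from its own fitted means and spread, which cannot check the model itself. Changes were added there only to genes averaging at least 1 in log2 CPM. Alternatives were limma 3.58.1 (voom with sample weights, and on the deposited log2 matrix), DESeq2 1.42.0, DESeq2 size factors, no filter, no run term, only the strains compared, and each library left out in turn.

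The 9 genes and the lists were chosen with earlier results of these data known. One gene of the pathway list is not reported here. All 9 are named. From each list, up to 4 genes that passed with the smallest adjusted p are named per comparison, and the genes named as most alike are those with the highest correlation over the 12 group means, among genes averaging at least 1 in log2 CPM. Replicate numbers follow accession order and only name a library.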

Additional observations from a re-analysis of the deposited data

Results flagged for a closer look

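Each of the 9 genes was looked at in each of the 11 groups of 4 libraries, which gave 99 sets. Of these, 9 held a library far from the other 3, and chance gives about 1 in 20. The sets share libraries and are not independent. In C57BL/6J females on 10% fat, Ace was at 346.7 CPM in replicate 4 (others 327 to 330 CPM), Ren1 at 67.0 CPM in replicate 3 (50.7 to 52.3 CPM) and Anpep at 192 CPM in replicate 2 (224 to 229 CPM). In C57BL/6J males on 10% fat, replicate 2 was apart for Mme, at 272 CPM, and for Mas1, at 0.571 CPM. In C57BL/6J females on 44% fat, Enpep was at 178 CPM in replicate 3. In CAST/EiJ males on 44% fat, Agt was at 4.11 CPM in replicate 2 (1.82 to 2.19 CPM) and Atp6ap2 at 106 CPM in replicate 3. In NZO/HlLtJ males on 10% fat, Agtr1a was at 40.2 CPM in replicate 2 (45.5 to 46.0 CPM).

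Some effects differed between strains by the test of the difference in edgeR, in log2. The diet effect on Ace differed by -0.57 between NZO/HlLtJ and C57BL/6J (adjusted p 0.0428) and by -0.73 between NZO/HlLtJ and CAST/EiJ (adjusted p 0.000204). The female-male difference of NZO/HlLtJ minus C57BL/6J was 1.90 for Agt, 0.42 for Ren1, -0.25 for Agtr1a, 0.65 for Mme, -0.40 for Enpep and -1.81 for Mas1, with adjusted p from 3.03e-07 to 0.0275. That of CAST/EiJ minus C57BL/6J was 0.34 for Ace, 1.80 for Agt, -0.36 for Agtr1a and 0.56 for Mme, with adjusted p from 4.85e-08 to 0.0277. That of NZO/HlLtJ minus CAST/EiJ was -0.45 for Enpep (adjusted p 5.62e-07) and -1.05 for Mas1 (adjusted p 0.0498).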

How the results depend on the processing

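No value that passed changed sign under any of the 8 kinds of alternative. No fit of the counts dropped the scaling whose factors split by sex, so the signs of small sex effects were not tested against it. Values that did not pass changed sign 141 times among 3798 values with a library left out and at most 11 times among 216 values under another setting. The lower Ace and Mas1 in NZO/HlLtJ on 44% fat, as the mean of both sexes, passed in every fit, as did the difference of the Ace diet effect between NZO/HlLtJ and CAST/EiJ. With no filter on low counts, 0 of the 9 genes passed for diet in CAST/EiJ, 0 for the diet effect of NZO/HlLtJ minus C57BL/6J (Ace -0.57, adjusted p 0.054) and 1 for the female-male difference of NZO/HlLtJ minus CAST/EiJ. With only the strains compared, 0 passed for the diet effect of NZO/HlLtJ minus C57BL/6J (Ace -0.58, adjusted p 0.053), and the calls of Ace and Agtr1a for females against males in NZO/HlLtJ and of Agtr1a for NZO/HlLtJ against CAST/EiJ were lost. Over the 7 other settings, and over the fits with 1 library left out, 6 to 8 of the 9 passed for females against males in NZO/HlLtJ. Under limma-voom and under limma on the deposited matrix, 2 passed for diet in CAST/EiJ, 1 in CAST/EiJ males and 1 for the female-male difference of NZO/HlLtJ minus CAST/EiJ. DESeq2 gave 1 in CAST/EiJ females, 1 in CAST/EiJ males and 1 for the diet effect of females minus males in NZO/HlLtJ. With 1 library left out, counts were 0 to 1 for diet in CAST/EiJ, 0 to 1 for the diet effect of NZO/HlLtJ minus C57BL/6J (Ace -0.64 to -0.53), 1 to 2 for the female-male difference of NZO/HlLtJ minus CAST/EiJ, 0 to 1 for the diet effect of females minus males in NZO/HlLtJ and 1 to 2 in NZO/HlLtJ males. The cause was not tested. No paired analysis was possible because the labels give no replicate numbers. Mas1, with 3 to 223 counts per library, has the least depth of the 9.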
